A study of Solea senegalensis with 8 samples.

Results

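The miR-30 family of Senegalese sole (Solea senegalensis) was represented by 7 of the 320 miRNAs in the deposited expression table, namely miR-30a-5p, miR-30a-3p, miR-30b, miR-30c, miR-30d, miR-30e and miR-30f. They are all the rows whose miRNA number is exactly 30, with any letter and strand. This rule uses no measured value, although earlier results of these data were known when it was set. Small RNAs were sequenced on the SOLiD platform from whole embryos at 75Ep (a stage of epiboly, when cells spread over the yolk) and at 20S (a somite stage), from whole newly hatched larvae (Hatch) and from whole larvae at metamorphosis climax (Met). Embryos were incubated at 21°C or at 15°C in separate tanks, and all larvae were reared at one common temperature after hatching. At Met the 2 groups therefore differed by design in the temperature of embryogenesis. They also differed slightly in age at sampling, and the 15°C group alone was moved to warmer water after hatching. Eggs came from natural spawning of captive broodstock. For each stage and temperature, triplicate samples were pooled into a single library, so no group had a replicate library, and the stage comparisons used both temperatures of a stage as its 2 libraries. All 8 libraries came from whole animals, in which fewer cells of a type and less miRNA per cell cannot be told apart.

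miRNAs guide the silencing machinery to messenger RNAs through pairing of the bases near their 5′ end, the seed. Apart from the 3p arm named below, the members of the miR-30 family carry the same seed and differ in the bases that follow. There miR-30b and miR-30c resemble each other, and miR-30a, miR-30d and miR-30e resemble each other. In zebrafish, miR-30 represses smoothened, a component of Hedgehog signalling, during the specification of early muscle fibres, and in Xenopus it acts on Lhx1 in the developing pronephros. The mature miRNA can be cut from either arm of its hairpin, named 5p and 3p, and in this table miR-30a was the member given with both arms.

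Levels are given in RPM, the reads of a miRNA scaled to a library of 1000000 trimmed reads, calculated from the deposited log2 percent of trimmed reads. The libraries held between 2169069 and 4965849 trimmed reads. The 320 rows together took 6.59%, 22.3%, 30.5% and 17.9% of these in the 21°C libraries of the 4 stages in order. In the 15°C libraries they took 6.84%, 23.1%, 24.9% and 46.0%. The paper counts more reads as annotated to miRBase in every library. The summed miRNA reads used below are those of the 320 rows only. The stage labels were checked against miR-430, which clears maternal transcripts in fish embryos. Its 5 rows made up 3.21% (21°C) and 5.83% (15°C) of the 75Ep libraries, but only 0.00141% (21°C) and 0.00421% (15°C) of the Met libraries. They took 5.72% (21°C) and 5.66% (15°C) of the 20S libraries, and 1.44% (21°C) and 1.72% (15°C) of the Hatch libraries. This check therefore cannot tell 75Ep from 20S. Intervals in parentheses are at 95%, are exact and cover counting error only.

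Summed over its 7 rows, the family was scarce in gastrulating embryos and abundant from the somite stage onward. In the 21°C libraries it took 0.0309% of trimmed reads at 75Ep, 0.233% at 20S, 0.379% at Hatch and 0.210% at Met. The 15°C libraries held 0.0118% at 75Ep, 0.229% at 20S, 0.510% at Hatch and 0.689% at Met. The lowest library was thus 75Ep at 15°C, with 330 family reads, and the highest was Met at 15°C, with 34216. As a share of the summed miRNA reads the family was 0.469%, 1.04%, 1.24% and 1.17% in the 21°C libraries of the 4 stages in order. In the 15°C libraries it was 0.172%, 0.989%, 2.05% and 1.50%. On that scale its highest level was at Hatch at both temperatures.

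The members differed widely in abundance. miR-30c contributed 36.2% of all family reads, miR-30b 24.3%, miR-30e 20.9% and miR-30d 16.3%. The remaining rows were minor, with 2.21% from miR-30a-3p, 0.116% from miR-30a-5p and 0.00869% from miR-30f. Among all miRNAs of a library, miR-30c ranked as high as 28 (Hatch at 15°C), and miR-30b and miR-30e each reached rank 40. All rows but miR-30f had reads in all 8 libraries, whereas miR-30f, with at most 4 reads in a library, had reads in 5.

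**Figure D1:**
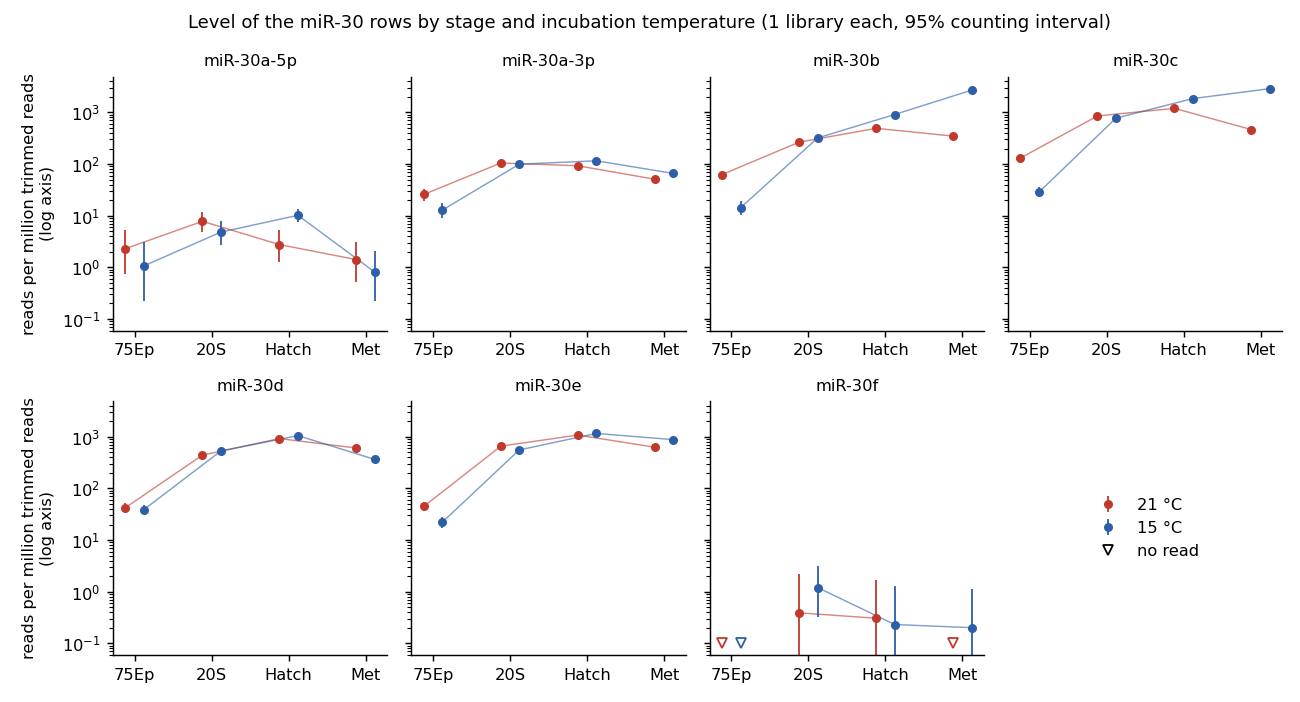
Level of each miR-30 row in RPM (log axis) at the 4 stages, with 21°C (red) left of 15°C (blue). Bars are 95% counting intervals, each point is 1 library and open triangles mark libraries with no read. miR-30b, miR-30c, miR-30d and miR-30e were lowest at 75Ep in both temperature groups, and miR-30f never exceeded 4 reads.

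miR-30c, the most abundant member, had 131 RPM at 75Ep, 854 at 20S, 1199 at Hatch and 464 at Met in the 21°C libraries. At 15°C it had 28.5 RPM at 75Ep, 775 at 20S, 1855 at Hatch and 2884 at Met. Both 20S libraries lay above both 75Ep libraries. By ratio, the temperature groups were closest at 20S and furthest apart at Met, and they also differed at 75Ep. Its log2 change was 3.73 at 20S against 75Ep (standard error 1.09, limma adjusted p = 0.0267) and 4.24 at Met against 75Ep (standard error 1.09, limma adjusted p = 0.00772).

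miR-30b, which resembles miR-30c in sequence, had 62.7 RPM at 75Ep, 266 at 20S, 492 at Hatch and 348 at Met in the 21°C libraries. Its 15°C libraries had 14.3 RPM at 75Ep, 320.2 at 20S, 911 at Hatch and 2697 at Met. Met at 15°C was the highest of its libraries by a wide margin, and the 2 Met libraries were on either side of Hatch at 15°C. Its log2 change was 3.29 at 20S against 75Ep (standard error 1.12, limma adjusted p = 0.0439) and 5.02 at Met against 75Ep (standard error 1.12, limma adjusted p = 0.00370).

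miR-30e had 44.7 RPM at 75Ep, 657 at 20S, 1079 at Hatch and 626 at Met in the 21°C libraries. In the 15°C libraries it had 22.1 RPM at 75Ep, 556 at 20S, 1159.7 at Hatch and 879.6 at Met. From 20S onward its 6 libraries spanned 556 to 1159.7 RPM, a narrower range than that of the other abundant members, and all lay far above both 75Ep libraries. Its log2 change was 4.26 at 20S against 75Ep (standard error 0.74, limma adjusted p = 0.00652) and 4.56 at Met against 75Ep (standard error 0.74, limma adjusted p = 0.000846).

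miR-30d had 42.4 RPM at 75Ep, 441 at 20S, 921 at Hatch and 605 at Met in the 21°C libraries. In the 15°C libraries it had 38.9 RPM at 75Ep, 531 at 20S, 1053 at Hatch and 363 at Met. It was highest at Hatch in both groups, and at Met it was the one abundant member whose 21°C library was above its 15°C library. Its log2 change was 3.57 at 20S against 75Ep (standard error 0.71, limma adjusted p = 0.00879) and 3.53 at Met against 75Ep (standard error 0.71, limma adjusted p = 0.00239).

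miR-30a-3p, from the other arm of the hairpin, had 25.8 RPM at 75Ep, 105 at 20S, 92.7 at Hatch and 50.9 at Met in the 21°C libraries. In the 15°C libraries it had 12.8 RPM at 75Ep, 99.4 at 20S, 116 at Hatch and 65.8 at Met. The 20S and Hatch libraries were the highest and the Met libraries lay between them and 75Ep. Its log2 change was 2.49 at 20S against 75Ep (standard error 0.77, limma adjusted p = 0.0333), and 1.67 at Met against 75Ep, which did not pass (standard error 0.77, limma adjusted p = 0.0816).

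miR-30a-5p, the arm that carries the family seed, stayed near the limit of detection. It had 2.31 RPM at 75Ep, 7.80 at 20S, 2.76 at Hatch and 1.41 at Met in the 21°C libraries, from 5, 20, 9 and 6 reads. In the 15°C libraries it had 1.07 RPM at 75Ep, 4.82 at 20S, 10.2 at Hatch and 0.806 at Met, from 3, 16, 44 and 4 reads. Neither its change of 1.96 at 20S against 75Ep (limma adjusted p = 0.201) nor its change of -0.56 at Met against 75Ep (limma adjusted p = 0.674) passed.

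miR-30f had no read in either 75Ep library, where 3 reads, taken as the most that a count of 0 allows, would be 0.000138% of the reads (21°C) or 0.000107% (15°C). It had 1 read (21°C) and 4 reads (15°C) at 20S, 1 read in each Hatch library, and 0 reads (21°C) and 1 read (15°C) at Met. Although it passed the test at 20S against 75Ep (limma adjusted p = 0.0333), that value depends on the level given to libraries with no read, and no fold is given.

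Across the table, 6 of the 7 members were thus higher at 20S than at 75Ep (5 of 6 without miR-30f), where 39.3% of the 295 miRNAs tested were higher. The median change was 3.29 over the 7 members and 2.15 over all 295. The count depended on which libraries were in the fit. It was 3 without either Hatch library, which left the changes as they were and entered only through the shared estimate of spread. A fit without a 20S library kept 1 library of that stage, and the change of miR-30e was then 4.32 (without 15°C) or 4.21 (without 21°C). Without 75Ep at 15°C, miR-30b changed by 1.53 and miR-30c by 2.11. These sizes carry no call and do not show that the count of 6 holds in such fits. At Hatch against 75Ep 5 members were higher (53.6% of all miRNAs), and 2 without either Hatch library. At Met against 75Ep 4 were higher, miR-30b to miR-30e, among 63.4% of all miRNAs, with a median change of 3.53 over the members and 4.07 over all. The members called at Met were therefore no larger a share than among all miRNAs.

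After 20S no change in a member passed on the scale of trimmed reads. At Hatch against 20S none of the 7 passed limma, by voom or by an unadjusted p, where 1.36% of all miRNAs were higher. At Met against Hatch none passed by any of these measures, where 17.6% of all miRNAs differed in either direction. At Met against 20S none passed limma or voom, where 36.9% of all miRNAs differed, and by an unadjusted p 1 member did with limma (miR-30f) and 2 with voom. The order of stages by mean log2 level, lowest first, was 75Ep, 20S, Hatch and Met for miR-30b, and 75Ep, 20S, Met and Hatch for miR-30c and miR-30e. For miR-30d and miR-30a-3p it was 75Ep, Met, 20S and Hatch, and for miR-30a-5p it was Met, 75Ep, Hatch and 20S. In miR-30b to miR-30e the lowest stage differed from the next by limma, and no other neighbours in these orders did. Over the 4 stages together, 5 members differed by limma's F-test (miR-30a-3p to miR-30e), among 68.8% of all miRNAs, and 3 did without 75Ep at 15°C or without Hatch at 15°C.

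Since the share of miRNA among trimmed reads differed between libraries and was lowest at 75Ep, the changes were also computed on 2 other scales. As a percent of summed miRNA reads, the median change of all miRNAs was 1.19 at 20S and 2.55 at Met against 75Ep, and after centring every library on its own median miRNA it was 0.47 and 0.61. On the first scale 2 members passed at 20S (miR-30e and miR-30f) and 1 at Met (miR-30e, by 2.47, limma adjusted p = 0.0113). Of all 295 miRNAs, 44 were higher at 20S and 135 at Met on that scale. Centred on the median miRNA, the same 2 members passed at 20S, with 1.75 for miR-30e (limma adjusted p = 0.0246). Of all 295 miRNAs, 43 were then higher at 20S. On both scales the pass of miR-30f, which had no read at 75Ep, depends on the level given to libraries with no read. At Met the centred changes of miR-30b, miR-30c, miR-30d and miR-30e were 0.55, -0.22, -0.93 and 0.10, and none of these passed. Both arms of miR-30a then fell at Met against 75Ep, miR-30a-3p by 2.80 (limma adjusted p = 0.00864) and miR-30a-5p by 5.02 (limma adjusted p = 0.0264). In that comparison 49 of the 295 miRNAs were lower and 70 higher. Relative to the median miRNA, 65 of the 295 miRNAs were lower at Met than at 20S. Among them were 4 members, both arms of miR-30a, miR-30e and miR-30f. For miR-30f, without a read at Met at 21°C, this too depends on the level given to libraries with no read.

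**Figure D2:**
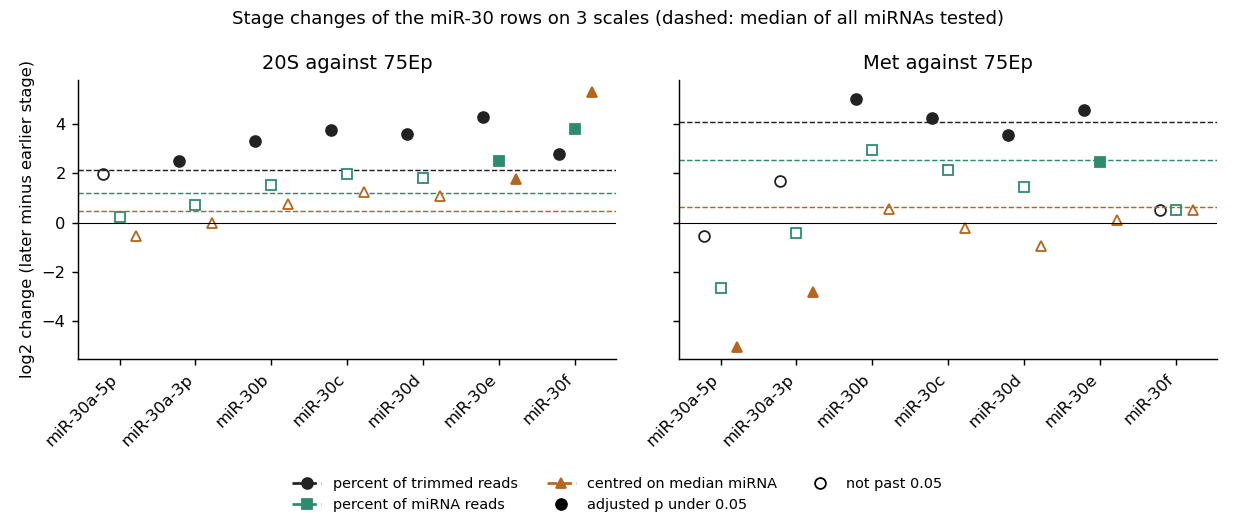
log2 change of each miR-30 row at 20S (left) and at Met (right) against 75Ep, on 3 scales. Filled symbols passed limma at an adjusted p under 0.05, and dashed lines are the medians of all 295 miRNAs. Those of miR-30f depend on the level given to libraries with no read. At Met the 4 abundant members lay on both sides of the median or below it, and both rows of miR-30a lay further below it on each scale.

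The share of miR-30b and miR-30c among the family reads was alike in the 2 temperature groups at 20S and differed most at Met. miR-30b and miR-30c together took 62.7% of family reads (58.9 to 66.4%) at 21°C and 36.4% (31.2 to 41.8%) at 15°C at 75Ep. They took 48.0% (46.8 to 49.3%) and 47.9% (46.8 to 49.0%) at 20S, in the same order. At Hatch the pair took 44.6% (43.8 to 45.5%) at 21°C and 54.2% (53.5 to 54.8%) at 15°C. At Met it took 38.8% (37.7 to 39.8%) at 21°C and 81.0% (80.6 to 81.4%) at 15°C. The pair was thus the larger share of the 21°C library at 75Ep and of the 15°C library at Hatch and Met.

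**Figure D3:**
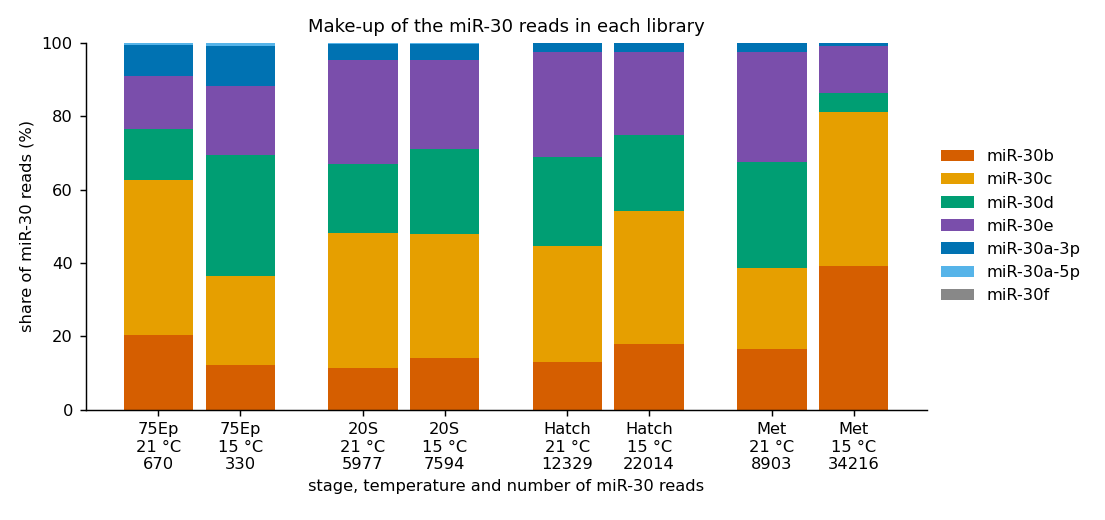
Share of each row among the miR-30 reads of a library (%), with 21°C left of 15°C at each stage and the number of miR-30 reads under each bar. miR-30b with miR-30c made up 38.8% at 21°C and 81.0% at 15°C in Met larvae, the widest gap between temperatures of any stage.

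Within the pair, reads of miR-30c outnumbered those of miR-30b in all 8 libraries, by 2.09, 3.21, 2.44 and 1.33 times in the 21°C libraries of the 4 stages in order and by 2, 2.42, 2.04 and 1.07 times in the 15°C libraries. The 2 Met libraries had the lowest ratios. The ratio of miR-30e to miR-30d reads was 1.05, 1.49, 1.17 and 1.04 in the 21°C libraries and 0.569, 1.05, 1.10 and 2.42 in the 15°C libraries. In this second pair the 15°C libraries held both extremes. Over the 8 libraries the log2 levels of miR-30b and miR-30c had a Pearson correlation of 0.98, and those of miR-30d and miR-30e of 0.97. After centring on the median miRNA these were 0.81 in both pairs, and across the pairs they were -0.21 (miR-30b with miR-30d), 0.25 (miR-30b with miR-30e), 0.29 (miR-30c with miR-30d) and 0.65 (miR-30c with miR-30e). The members share libraries, depth and, within a pair, much of their sequence, so these correlations are descriptions only. How reads that fit more than 1 member were assigned is not given in the sources used here, and the split within a pair is uncertain to that extent. The same holds for the split between miR-30a-5p and the second pair, and for the few reads of miR-30f.

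Averaged over the stages, no member passed the test between incubation temperatures. The test gave 0 of the 7 members and 0% of all miRNAs by limma, and likewise 0 by voom, with 8 of 295 miRNAs and 0 members at an unadjusted p under 0.05 with either tool. Without miR-30f, the log2 differences, 21°C minus 15°C, ranged from -0.49 (miR-30b) to 0.18 (miR-30a-5p), with standard errors between 0.50 and 0.79. That of miR-30f, -0.56, depends on the level given to libraries with no read. This test averages over stages, and the ratios within stages pointed in opposite directions. With 1 library per temperature no test was possible within a stage, and ratios are given with counting intervals only.

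At 75Ep, miR-30b was 4.39 times (3.07 to 6.42) and miR-30c 4.59 times (3.57 to 5.96) as abundant at 21°C as at 15°C. miR-30e and miR-30a-3p were 2.02 times (1.46 to 2.83) and 2.01 times (1.30 to 3.15) as abundant, and miR-30d had a ratio of 1.09 (0.817 to 1.45). Counting miR-30a-5p (5 and 3 reads, 2.15 times, 0.419 to 13.9), 5 of the 6 members with reads were at least 2-fold higher at 21°C, as were 49.2% of the 193 miRNAs with reads in both libraries, while 9.84% were at least 2-fold lower. The median log2 ratio of these miRNAs was 0.95, and 33 of them had a higher ratio than miR-30c. Centred on the median miRNA, miR-30b (2.32) and miR-30c (2.42) were past 2-fold, while miR-30e, miR-30a-3p and miR-30a-5p had ratios of 1.07, 1.06 and 1.14, and miR-30d had 0.575. Marker lists also differed between these 2 libraries. Skin miRNAs summed to 0.730% at 21°C and 0.134% at 15°C, those of the nervous system to 0.0411% and 0.00721%, and those of kidney to 0.189% and 0.0673%. The 2 liver rows summed to 0.000138% and 0.000285%, where 0.000138% is the level of 3 reads in the 21°C library. The lists carry the names of tissues where these miRNAs are known, and no tissue was identified in these embryos. Their part in the ratios was not tested.

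At 20S the ratios of the abundant members lay between 0.831 (miR-30b and miR-30d) and 1.18 (miR-30e), and no member with at least 10 reads in both libraries reached 2-fold (miR-30f had 1 read at 21°C and 4 at 15°C), in a stage where 11.3% of miRNAs were at least 2-fold higher at 21°C and 9.24% lower. At Hatch every member but miR-30f had a ratio below 1, and miR-30a-5p, with 9 reads at 21°C and 44 at 15°C, was the one past 2-fold, at 0.271 (0.116 to 0.562). Of all miRNAs 12.1% were at least 2-fold higher at 21°C and 12.5% lower. miR-30b had a ratio of 0.540 (0.509 to 0.572) and miR-30c of 0.646 (0.622 to 0.671), while miR-30d and miR-30e were at 0.875 (0.835 to 0.917) and 0.930 (0.891 to 0.971). On the other scales miR-30b was past 2-fold as well, at 0.440 per summed miRNA reads and 0.437 centred.

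At Met miR-30b and miR-30c had far lower ratios than miR-30d and miR-30e, and of these 4 only miR-30d was above 1. miR-30b had 0.129 times (0.122 to 0.136) and miR-30c 0.161 times (0.154 to 0.169) the level at 21°C that it had at 15°C. miR-30d had 1.67 times (1.57 to 1.77) the level, miR-30e 0.712 times (0.678 to 0.748) and miR-30a-3p 0.772 times (0.647 to 0.920). At least 2-fold lower at 21°C were 2 members, and 64.3% of the 258 miRNAs with reads in both libraries, while 4.26% were at least 2-fold higher. The median log2 ratio was -1.36. Of the 258 miRNAs, 10 had a lower ratio than miR-30b and 17 a lower one than miR-30c, whereas 15 had a higher ratio than miR-30d. Per summed miRNA reads, which differed in share between the 2 Met libraries, the ratios were 0.332 for miR-30b and 0.415 for miR-30c, against 4.29 for miR-30d, 1.83 for miR-30e and 1.99 for miR-30a-3p, so that the direction of miR-30e and miR-30a-3p turned and that of the other 3 did not. Summed levels of other marker miRNAs also differed between these libraries. The 14 muscle miRNAs summed to 0.370% of trimmed reads at 21°C and 1.92% at 15°C, 3 miRNAs of gut and liver to 1.22% and 4.11%, and 6 of the nervous system to 0.102% and 0.387%, whereas the 2 liver rows summed to 0.0870% at 21°C and 0.0530% at 15°C, and their part in the result was not tested.

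**Figure D4:**
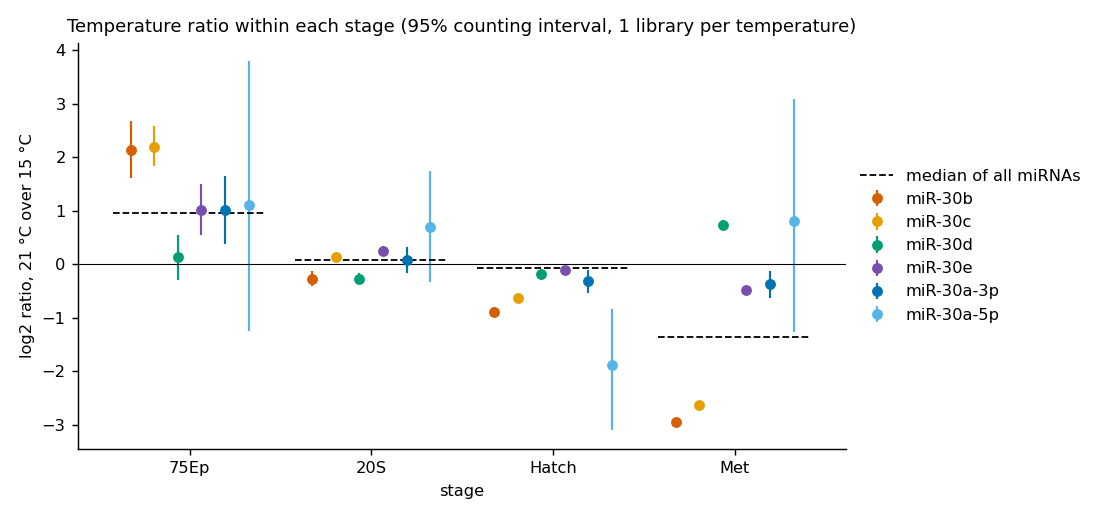
log2 ratio of the level at 21°C over that at 15°C within each stage for the 6 miR-30 rows with reads in all libraries. Bars are 95% counting intervals and dashed lines the median of all miRNAs with reads at both temperatures (0.95 at 75Ep and -1.36 at Met). miR-30b and miR-30c were above the median at 75Ep and below it at Met, whereas miR-30d was below it at 75Ep and above it at Met.

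Of the 2 arms of miR-30a, the 3p arm was the more abundant in 8 of 8 libraries. Its reads outnumbered those of the 5p arm 11.2, 13.5, 33.6 and 36.0 times in the 21°C libraries of the 4 stages in order, and 12.0, 20.6, 11.3 and 81.8 times in the 15°C libraries. The mean log2 ratio of 5p over 3p was -4.41 ± 1.04 (SD over 8 libraries, exact sign-flip test, two-sided p = 0.00781, the smallest this design allows). This test and the permutation test below take the libraries as independent, although they differ in stage and temperature and none is a replicate of another. The 5p counts of 3 to 44 reads limit the precision of each ratio. The 5p arm also resembles miR-30d and miR-30e, and no other member has a 3p row. How reads that fit more than 1 row were assigned is not given in the sources used here, so the ratio of the arms is uncertain to that extent. In the 4 Hatch and Met libraries the mean log2 ratio was -5.02 ± 1.17 and in the 4 libraries of 75Ep and 20S it was -3.80 ± 0.40, a difference that did not pass (exact permutation test, two-sided p = 0.114, where 0.0286 is the smallest possible).

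**Figure D5:**
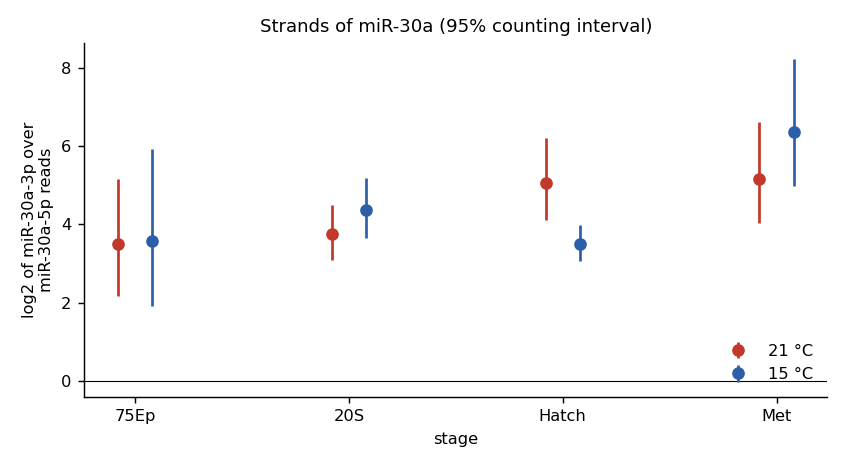
log2 of miR-30a-3p reads over miR-30a-5p reads at each stage, with 21°C (red) left of 15°C (blue) and 95% counting intervals. All 8 libraries lay above 0, from 11.2 times at 75Ep to 81.8 times at Met.

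The miRNAs whose log2 levels most resembled those of each member over the 8 libraries were sought among the other 173 miRNAs with reads in every library. For miR-30b they were miR-124-3p (Pearson r = 0.98), miR-26b and miR-222a-3p, and for miR-30c miR-222a-3p (0.99), miR-204 and miR-429-3p. For miR-30d they were miR-184-3p (0.97), miR-133b-3p and miR-10c, and for miR-30e miR-10c (0.99), miR-133b-3p and miR-181b. miR-30a-3p was most like miR-375 (0.99), miR-1788-3p and miR-19b-3p, and miR-30a-5p like miR-18b (0.89), miR-18c and miR-92a. High values were common, since the median r over the 173 was 0.85 for miR-30b and 0.81 for miR-30e, against 0.13 for miR-30a-5p. After centring on the median miRNA, miR-124-3p was still first for miR-30b (0.78), miR-429-3p came first for miR-30c (0.91) and miR-375 for miR-30e (0.98). For miR-30d miR-126a-5p came first (0.90), and miR-19b-3p for miR-30a-3p (0.98) and miR-30a-5p (0.96). None of those named above for miR-30d, miR-30e or miR-30a-5p stayed among the 3 most alike. By Spearman rank correlation without centring, miR-126a-5p was also first for miR-30d (0.90). The points share libraries and depth, and no test was made.

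Other groups of miRNAs were counted in the same way. Of 14 rows of the muscle miRNAs (miR-1, miR-133, miR-206 and miR-499), 7 were higher at 20S and 9 at Met than at 75Ep (39.3% and 63.4% of all miRNAs), with median changes of 2.71 and 5.82, and none was lower. Per summed miRNA reads 2 and 8 were higher, and after centring 1 and 5 were higher and 1 was lower in each comparison. miR-206-3p, which promotes myoblast differentiation, rose by 4.35 at 20S (standard error 1.04, limma adjusted p = 0.0146), and miR-133b-3p by 4.98 (standard error 0.73, limma adjusted p = 0.00573). miR-1a-3p, the other of the 3 most abundant, changed by 0.31 at 20S (standard error 0.92, limma adjusted p = 0.849) and passed at Met, where it rose by 6.37 (standard error 0.92, limma adjusted p = 0.000508). Of 10 rows of the kidney list (miR-10, miR-192, miR-194, miR-204 and miR-215), 6 were higher at 20S and 8 at Met, with median changes of 3.54 and 5.24. Per summed miRNA reads 5 and 8 were higher, and after centring 5 at each stage. Some of these miRNAs are also of gut and liver, and the list is not specific to kidney. Its 3 most abundant rows were miR-204, miR-10b and miR-10d, none of them on the gut and liver list. Both rows of the miR-26 family were higher at 20S (median 3.26) and at Met (3.90), but none at 20S and 1 at Met per summed miRNA reads, and none at either stage after centring (medians 0.74 and -0.57). Of the 3 rows of the miR-29 family none passed at 20S by limma, at an unadjusted p or by voom, and 2 were higher at Met, with medians of 1.99 and 3.49, and none on either other scale. The medians of the miR-30 members, 3.29 at 20S and 3.53 at Met, stood beside 2.15 and 4.07 for all miRNAs.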

How the data were processed

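Libraries were prepared with the SOLiD total RNA-seq kit from pools of triplicate samples. The authors clipped and quality-filtered the colour-space reads, discarded those that matched tRNA, rRNA and similar RNAs in BLAST searches, and assigned what remained to conserved miRNAs of miRBase. The deposited values are the log2 of the percent of trimmed reads taken by each of 320 miRNAs. The trimmed reads of each library were recovered from the steps between low values, after which 99.5% of 2033 values above the lowest (-46.51, no read) were whole reads within 0.01 read, including all 53 of the miR-30 rows. For the tests a miRNA without a read in a library was set to -16.60, which is 1 log2 unit under the lowest 1-read value in the table. The other 2 scales had levels set in the same way, which lie further below 1 read of the 75Ep libraries. Stages and temperatures were compared with limma 3.58.1 in R 4.3.3 on the log2 values, with stage and temperature terms and a trended variance prior, leaving 3 residual degrees of freedom. Adjustment was by Benjamini-Hochberg over 295 miRNAs, those with a read in 2 or more libraries. Where temperature acts differently at different stages, the fit treats this as error, and p-values measure only the spread between these libraries. The scripts were tested on simulated data. Other scalings, floors, filters, priors, voom and left-out libraries were tried. Ratios within a stage have exact binomial intervals, and arms were compared with exact permutation tests in Python 3.11.15 with scipy 1.17.1. PCR copies were not distinguished, so intervals cover counting error only. Members and lists were chosen with earlier results of these data known. All 7 members are described, other miRNAs are named as the 3 most alike to a member or from the 3 most abundant of a list, and the comparisons of Hatch with 75Ep and of Met with 20S were added after seeing the data. Mature sequences and genomic positions are not used here.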

Additional observations from a re-analysis of the deposited data

Results flagged for a closer look

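miR-30b and miR-30c had temperature ratios past 2-fold in opposite directions at 2 stages, each beyond its counting interval. For miR-30b the level at 21°C over that at 15°C was 4.39 at 75Ep and 0.129 at Met, and for miR-30c it was 4.59 at 75Ep and 0.161 at Met. With 1 library per stage and temperature the difference between the stages was not tested. Of 184 miRNAs with reads in these 4 libraries, 61 (33.2%) were likewise at least 2-fold higher at 75Ep and at least 2-fold lower at Met. After each library was centred on its median miRNA, which subtracted 0.92 from the log2 ratios at 75Ep and -1.11 from those at Met, 6 of the 184 (3.26%) met both limits and 2 of these 6 were miR-30b and miR-30c. Their centred ratios were 2.32 and 2.42 at 75Ep, and 0.279 and 0.348 at Met. The 2 rows were flagged by these same ratios, resemble each other in sequence and had a Pearson correlation of 0.98. They therefore do not count as independent members. In the 75Ep library at 15°C they had only 40 and 80 reads. No group had the 4 libraries that a check for outlying samples needs.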

How the results depend on the processing

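Which members passed depended most on the scale and on which libraries were in the fit, and the cause was not tested. A fit without 1 library of a compared stage kept 1 library there and 2 residual degrees of freedom. Per summed miRNA reads the number of members past the threshold was 2 at 20S, 2 at Hatch and 1 at Met (each against 75Ep), 2 over all stages and 1 at Met against 20S. Centred on the median miRNA it was 2, 1, 2 (both lower), 3 and 4 in the same order. Passes of miR-30f among these depend on the level given to libraries with no read. Per summed miRNA reads 44, 100 and 135 of all 295 miRNAs were higher than at 75Ep, in the order above. On that scale 145 differed over all stages and 20 were lower at Met against 20S. Centred, 43 and 53 were higher at 20S and Hatch, and 49 were lower at Met. On this scale 143 differed over all stages and 65 were lower at Met against 20S. With undetected values as deposited the number of members was 3 at 20S against 75Ep and 3 over all stages. With reads summed over the 5p rows, the 1 summed row passed in each of these comparisons with 75Ep and over all stages. Leaving out 1 library at a time gave 0 to 6 members at 20S, 2 to 5 at Hatch and 3 to 5 over all stages. The other planned settings left every count of members within 1.5 times, and at Hatch against 20S, at Met against Hatch and for temperature the count was 0 under every setting run. In the planned comparisons signs turned as follows. Centring gave log2 changes at 20S against 75Ep of -0.55 (miR-30a-5p) and -0.0289 (miR-30a-3p), and at Hatch against 20S of -1.27 (miR-30a-3p), -0.10 (miR-30b), -0.42 (miR-30c), -0.27 (miR-30d) and -0.40 (miR-30e). It gave -0.12 for miR-30b at Met against Hatch, and -2.80 (miR-30a-3p), -0.22 (miR-30c) and -0.93 (miR-30d) at Met against 75Ep. Per summed miRNA reads, miR-30a-3p changed by -0.26 at Hatch against 20S and -0.43 at Met against 75Ep, and miR-30c had a temperature difference of 0.0616. By voom, miR-30f changed by -0.11 at Met against 75Ep. The ratios of 21°C over 15°C at Met turned to 1.99 (per miRNA reads) and 1.67 (centred) for miR-30a-3p and to 1.83 and 1.54 for miR-30e, and that of miR-30d at 75Ep to 0.575 (centred). In the 2 added comparisons, run for single members on the 3 scales, centring turned Hatch against 75Ep to -2.05 (miR-30a-5p) and -1.30 (miR-30a-3p) and Met against 20S to -0.22 (miR-30b), -1.44 (miR-30c) and -1.65 (miR-30e), and per summed miRNA reads miR-30a-5p changed by -0.28 and miR-30e by -0.0392 in these comparisons in turn. Leaving out 1 library gave ranges across 0 at Hatch against 20S for miR-30a-5p (-1.58 to 1.17) and miR-30a-3p (-0.26 to 0.30), at Met against Hatch for miR-30b (-1.11 to 2.17) and miR-30c (-1.97 to 1.24), and at Met against 75Ep for miR-30a-5p (-1.18 to 0.0583). For temperature it gave -0.13 to 0.87 (miR-30a-5p), -0.20 to 0.26 (miR-30a-3p), -1.37 to 0.33 (miR-30b), -1.04 to 0.57 (miR-30c), -0.11 to 0.22 (miR-30d) and -0.12 to 0.38 (miR-30e). Of the 26 ratios within a stage, 21 rest on at least 10 reads in both libraries. The tests of the miR-30a arms kept their side of the threshold without any 1 library and with 0.5 read added. The temperature test pairs the 2 libraries of a stage through its stage terms, and without these terms it also called 0 members. Depth limits miR-30a-5p and miR-30f, and pools without replicate libraries limit every temperature ratio.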
